A study of Mus musculus with 12 samples.

Results

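The 8 genes described here, Tmem119, Cx3cr1, Sparc, Fcrls, Siglech, Olfml3, Csf1r and Selplg, were chosen by name from the genes that mark resting (homeostatic) microglia, 8 of 31053 genes in the count tables. They were measured by droplet single-cell RNA-seq in CD45+/CD11b+ cells sorted from whole brains of 12 young adult male C57BL/6J mice at about post-natal day 90. Each brain gave 1 library, and 3 mice fell in each of 4 preparations. Brains were dissociated either by cold mechanical Dounce homogenization (DNC) or by enzymatic digestion at a warm temperature (ENZ), each without inhibitors (NONE) or with actinomycin D, triptolide and anisomycin, which block transcription and translation (INHIB). The comparison asks whether the way the brain was taken apart, which raised immediate early genes such as Fos in some preparations, also moved the genes by which microglia are recognized. None of the 8 genes was part of the sort gate, which held all living CD45+/CD11b+ single cells and so admitted border macrophages and monocytes as well.

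Microglia are the resident macrophages of the brain parenchyma, and they depend on signalling through the Csf1r receptor, which binds the cytokines Csf1 and Il34. Cx3cr1 is the receptor for the neuronal chemokine Cx3cl1, and Tmem119 is a transmembrane protein widely used as a marker of parenchymal microglia. Siglech is a receptor of the Siglec (sialic acid-binding lectin) family, and Fcrls is an Fc receptor-like scavenger receptor. Selplg is the P-selectin ligand PSGL-1, and Sparc and Olfml3 encode secreted matrix-associated proteins. Several of these genes are known to fall when microglia become reactive.

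Promoter sequences of 5 of the 8 genes were found in the RefSeq table for GRCm38.p6. The 250 bases before the annotated start are shown for Fcrls and Sparc, the members with the largest and the smallest share of their microglial level in border macrophage-like cells pooled over all libraries, as given further on. Both windows run from the RefSeq start, which lies inside the GENCODE span of each gene. Capitals mark the letters GAGGAA or GGAAGT on either strand, which hold the GGAA core bound by the ETS factor PU.1, a master regulator of macrophages.
Fcrls, chr3:87263525-87263774, minus strand: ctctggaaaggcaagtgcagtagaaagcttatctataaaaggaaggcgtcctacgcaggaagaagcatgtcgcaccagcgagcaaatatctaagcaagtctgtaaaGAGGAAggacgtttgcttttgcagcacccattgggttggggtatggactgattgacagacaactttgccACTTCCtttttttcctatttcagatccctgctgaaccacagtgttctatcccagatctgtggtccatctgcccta
Sparc, chr11:55420081-55420330, minus strand: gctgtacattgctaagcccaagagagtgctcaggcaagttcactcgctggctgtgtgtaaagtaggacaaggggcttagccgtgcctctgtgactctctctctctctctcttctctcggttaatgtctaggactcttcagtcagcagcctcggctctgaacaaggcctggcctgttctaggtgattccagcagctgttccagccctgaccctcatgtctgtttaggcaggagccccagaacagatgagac
In Fcrls, GAGGAA began 144 bases and GGAAGT, read on the other strand, 75 bases before the start, and Sparc held neither. Among the 5 members with a sequence, GAGGAA was found in 1 and GGAAGT in 2 (Fcrls and Siglech). These letters occurred in 23.3% and 19.7% of all 32851 promoters of this length, so a match describes the sequence only.

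The genes lie at chromosome 5, 113793729 to 113800516 (Tmem119), chromosome 9, 119901616 to 120069879 (Cx3cr1), chromosome 11, 55394500 to 55423183 (Sparc), chromosome 3, 87250758 to 87263738 (Fcrls), chromosome 7, 55768178 to 55778925 (Siglech), chromosome 3, 103722222 to 103738001 (Olfml3), chromosome 18, 61100598 to 61132149 (Csf1r) and chromosome 5, 113818536 to 113832644 (Selplg) of GRCm38 (GENCODE vM21). The Cx3cr1 annotation spans 9 other genes, 3 of them counted genes on its own strand, and Csf1r overlaps Hmgxb3 on the opposite strand. Csf1r overlaps no counted gene on its own strand. Whether reads from overlapping genes entered the counts of these 2 genes was not tested. The other 6 genes overlapped no annotated gene.

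The 12 libraries held 28426 cell barcodes, of which 18826 passed the filters (at least 500 genes, at least 1000 unique molecular identifiers or UMIs, and at most 10% mitochondrial UMIs). Kept cells per library ranged from 853 to 2185, UMIs in them from 1059783 to 3233159, and the median per cell from 1153 to 1572. Clustering without the 8 genes placed 17923 cells (95.2%) in 6 microglia-like clusters, 303 in a border macrophage-like cluster led by Pf4, and 123 in a monocyte-like group led by Plac8, from which 12 cells rich in neutrophil genes had been set apart. P2ry12 and Trem2, microglial genes that are not members, were present in every library, and the brain cell markers Aqp4 (astrocytes) and Cldn5 (endothelium) summed to 2 and 1 UMIs over all libraries. Libraries shared 2 to 16 barcodes per pair, and the count differences between replicates exceeded counting noise (chi-square per degree of freedom 1.6 to 6.5), so each library was counted as 1 sample. ENZ-NONE replicate 6 stood apart in activation genes: 37.3% of its microglia-like cells carried Fos, against 12.5% and 13.9% in the other ENZ-NONE libraries. Results that rest on it are given with and without it.

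All 8 genes were abundant in every library. Summed over all kept cells, they made up 2.19% to 2.47% of the UMIs of a library, and 7 of them were among the 40 most abundant of 16399 detected genes. Selplg stood highest at 5582 ± 357 UMIs per 1000000 UMIs of the library (counts per 1000000, CPM; SD, n = 12 libraries), followed by Csf1r at 3994 ± 107 and Tmem119 at 3890 ± 358, which did not differ beyond their spread. Fcrls (2546 ± 157), Cx3cr1 (2373 ± 169), Sparc (2187 ± 222) and Olfml3 (2025 ± 170) formed a middle range in which each overlapped its neighbour, and Siglech was lowest at 756 ± 77.1. UMIs were counted once per molecule from its 3′ end, so these levels need no division by gene length. Csf1r was the steadiest of the 8, with a coefficient of variation of 2.68% over the 12 libraries and a highest library 1.10 times the lowest. Siglech and Sparc varied most, at 10.2% and 10.1%.

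Per cell, the level of the 8 genes together ranged from 27.7 to 39.9 UMIs over libraries, and this range includes the depth of the libraries. After each cell was thinned to 1000 UMIs, a microglia-like cell carried a median of 24 UMIs of the 8 genes and a median of 7 of the 8 genes. All 8 were seen in 5331 of 17923 microglia-like cells (29.7%), 99.7% carried at least 4, and 1 cell carried none. The median of 7 held in each of the 12 libraries, and the share of cells with all 8 ran from 26.7% (DNC-NONE replicate 1) to 33.8% (ENZ-INHIB replicate 3). Selplg had a UMI in 99.0% of thinned microglia-like cells, Csf1r in 97.9%, Tmem119 in 96.1%, and Siglech in 52.6%. As a background for such shares, among the 12 cells set apart by neutrophil genes (median depth 2143 UMIs, against 1333 for microglia-like cells), Tmem119, Cx3cr1 and Csf1r each had a UMI in 1 thinned cell and the other 5 genes in none, which allows a share of up to 25%.

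**Figure D1:**
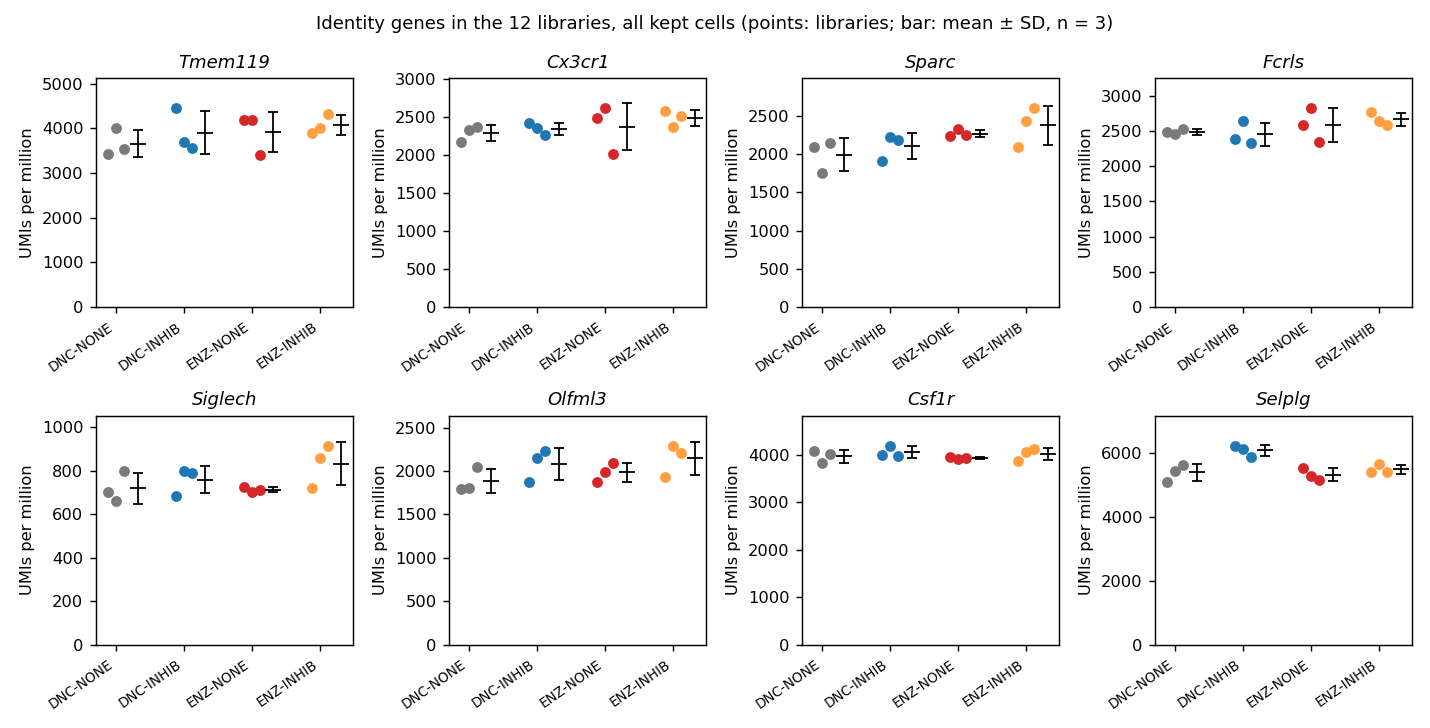
CPM of each gene in every library, over all kept cells, by preparation; points are libraries and bars the mean ± SD of 3 libraries. The levels of the 4 preparations lie close together for every gene, and Csf1r varies least, from 3816 to 4190.

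Across the 4 preparations none of the 8 genes was called changed in any comparison. A call required an adjusted p under 0.05 and a log2 fold change of at least 0.58 (1.49-fold), the thresholds of the study's methods, in edgeR's quasi-likelihood test fitted over 9882 genes. In ENZ-NONE vs DNC-NONE, where 61 genes (0.617%) were called, the 8 log2 fold changes lay between 0.02 and 0.23, all above 0, beside a median of 0.00 over all tested genes. Marker lists of other cells had overlapping ranges with higher upper ends in DNC-NONE: the summed CPM of the neutrophil list ranged from 206 to 2288 in DNC-NONE and from 219 to 257 in ENZ-NONE, of the monocyte list from 185 to 314 and from 52.3 to 210, and of the border macrophage list from 270 to 518 and from 227 to 294. In microglia-like cells alone the 8 values ran from -0.02 (Siglech) to 0.18 (Sparc), and Selplg was also below 0 (-0.02). The part of the other cells in the values over all cells was not tested further. Tmem119 was measured at 4189, 4177 and 3405 CPM in ENZ-NONE and at 3436, 4008 and 3527 in DNC-NONE, and the groups overlapped (log2 fold change 0.14 ± 0.09 SE, adjusted p = 0.752). Cx3cr1, whose surface epitope can be cleaved by the enzymes and was for that reason left out of the study's sort gate, was at 2486, 2614 and 2019 against 2169, 2327 and 2364 (0.09 ± 0.08 SE, adjusted p = 0.839). The groups overlapped for its RNA too, with a 95% interval of -0.08 to 0.26. ENZ-NONE replicate 6 held the lowest Cx3cr1 of all 12 libraries, and the lowest Tmem119 by library total but not by the TMM scaling of the test (3559, against 3378 and 3513 in DNC-NONE replicates 1 and 3).

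The other pairs gave the same count. In ENZ-NONE vs DNC-INHIB (0.799% of genes called) the 8 values ran from -0.15 to 0.15, and in ENZ-NONE vs ENZ-INHIB (0.385%) from -0.19 to 0.00. In ENZ-INHIB vs DNC-INHIB (0.152%) they ran from -0.14 to 0.18, and in ENZ-INHIB vs DNC-NONE (0.101%) from 0.03 to 0.26. In DNC-NONE vs DNC-INHIB they ran from -0.17 to 0.02. There, edgeR called 0 of 9882 genes (0%), with 466 at an unadjusted p under 0.05, and DESeq2 called 1. The standard errors of these log2 fold changes were 0.07 to 0.11, and over the 48 pair tests the 95% intervals lay between -0.42 and 0.48, inside the fold threshold in either direction. With no inhibitors vs inhibitors (0.223% called) the 8 values ran from -0.14 to 0.00, and in the test of whether inhibitors acted differently under digestion than under Dounce (0.172% called) from -0.12 to 0.16, with an adjusted p of 1.00 for each. The pair comparisons share groups, so their values are not independent of each other.

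The 2 members with the smallest p-values were Sparc and Selplg. Sparc was at 2233, 2328 and 2248 CPM in ENZ-NONE and 2095, 2432 and 2600 in ENZ-INHIB, against 2097, 1749 and 2140 in DNC-NONE and 1915, 2223 and 2188 in DNC-INHIB. The digested and Dounce libraries overlapped, and the log2 fold change of digestion vs Dounce was 0.20 ± 0.07 (SE, adjusted p = 0.201), in a comparison that called 0.891% of genes. With the labelled batch as a covariate the adjusted p was 0.0363, and without the low-count filter 0.0330, at log2 fold changes of 0.20 and 0.21 that stay under the fold threshold, and over all alternatives it ran from 0.0330 to 0.414. Selplg was at 6242, 6135 and 5895 in DNC-INHIB, above every other library (the highest was 5669), and at 5111, 5454 and 5641 in DNC-NONE. How many of all genes had 1 preparation above every other library was not counted. The log2 fold change of Selplg in DNC-NONE vs DNC-INHIB was -0.17 ± 0.07 (SE, edgeR, adjusted p = 0.930). That comparison called 0 of 9882 genes.

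**Figure D2:**
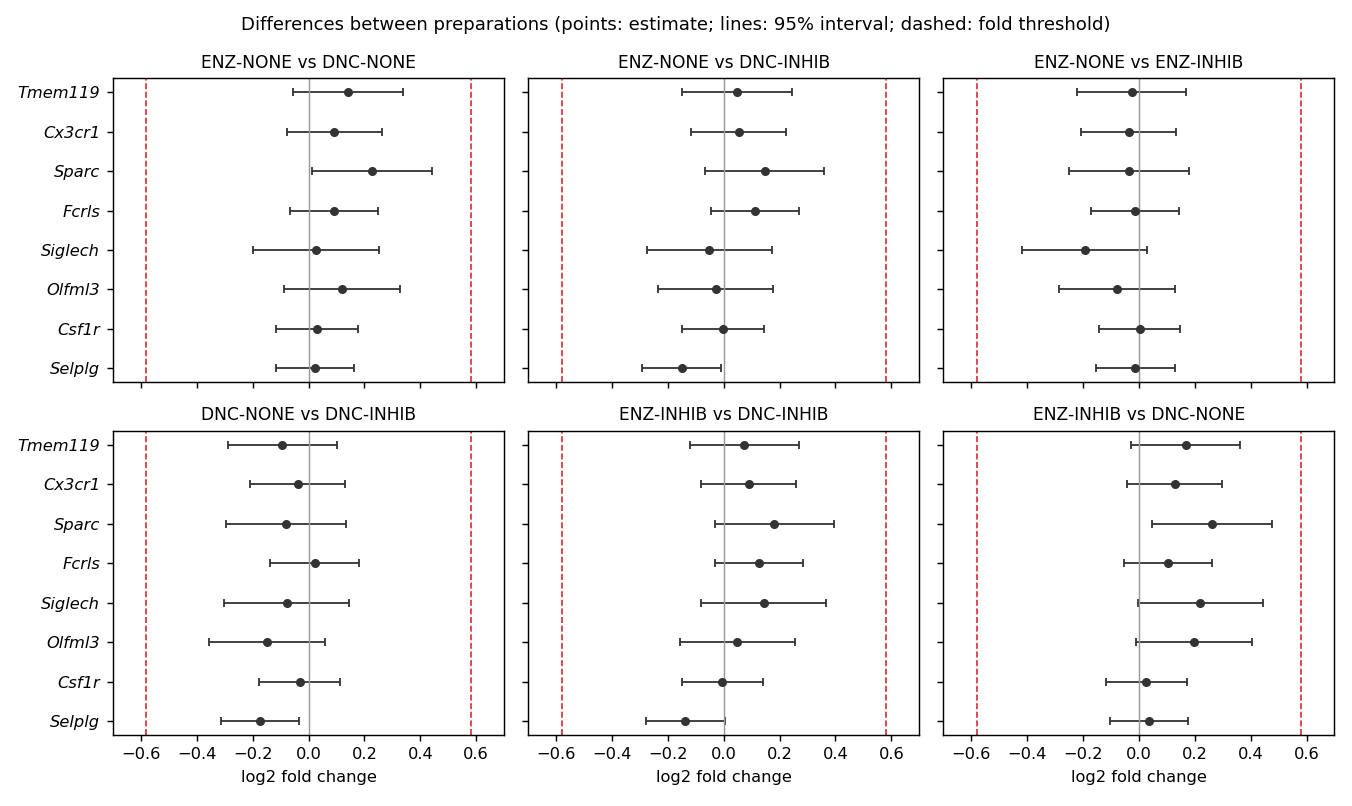
Log2 fold change of each gene in the 6 pair comparisons of the preparations (edgeR), with 95% intervals as horizontal lines; red dashed lines mark the fold threshold of 0.58 in each direction. Every interval lies inside the dashed lines, and the highest upper end is 0.48, for Sparc in ENZ-INHIB vs DNC-NONE.

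The labels put the libraries in 2 batches, each with all 4 preparations. In ENZ-NONE vs DNC-NONE the 8 log2 differences ran from 0.04 to 0.29 within batch 1 and from -0.16 to 0.14 within batch 2. In ENZ-NONE vs ENZ-INHIB all 8 were above 0 in batch 1 (0.01 to 0.17) and all 8 below 0 in batch 2 (-0.27 to -0.01). No direction was stable over the batches in that comparison. In batch 2, ENZ-NONE replicate 6 and DNC-NONE replicate 3 are the only libraries of their groups. In batch 1, ENZ-INHIB replicate 1 and DNC-INHIB replicate 4 are the only libraries of theirs.

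The genes around the members gave the same count. Of the 12 other identity genes of the study's list (such as P2ry12, Trem2, Tgfbr1, P2ry13, Adgrg1, C1qa, C1qb, C1qc, Fcgr3, Ly86 and Laptm5), 0 of 12 were called in any of the 9 comparisons of preparations. Of 16 ligands, receptors and regulators around the members (such as the cytokine Csf1, the lineage factors Spi1, Irf8 and Sall1, and the receptor Tgfbr2), 11 passed the low-count filter and 0 were called. These lists were drawn up with results of these data known. In the same fit all 8 of the activation genes Fos, Jun, Dusp1, Egr1, Ccl3, Ccl4, Hspa1a and Atf3 were called higher in ENZ-NONE than in each of the other 3 preparations. Their median log2 fold change vs DNC-NONE was 3.73, beside 0.09 for the 8 identity genes.

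Within the microglia-like cells, those that carried Fos differed from those that did not by log2 fold changes of -0.26 to 0.02 in the 8 genes. After thinning to 1000 UMIs, 1010 microglia-like cells had at least 1 Fos UMI and 16913 had none. The Fos-positive cells came mostly from ENZ-NONE (190, 148 and 616 cells in replicates 4, 5 and 6) and from DNC-NONE replicate 1 (48 cells), and the other 8 libraries held 0 to 2 each, 8 in all. These 4 libraries entered the test, in which each library is its own control. Fos-positive cells also carried more of the other activation genes: Dusp1 was detected in 30.4% to 52.1% of them in ENZ-NONE against 7.05% to 13.3% of the Fos-negative cells, with median depths of 1291 to 1513 and 1299 to 1458 UMIs before thinning. The test called 52 of 7311 genes (0.711%) and none of the 8 members, 7 of which had a log2 fold change below 0, with a median of -0.07 beside -0.01 over all tested genes. In ENZ-NONE, Selplg was at 5.18 ± 0.15 UMIs per 1000 (SD, n = 3) in Fos-positive and 5.64 ± 0.12 in Fos-negative cells. Csf1r was at 3.91 ± 0.14 and 4.12 ± 0.11, and Tmem119 at 4.13 ± 0.52 and 4.07 ± 0.31. In DNC-NONE replicate 1, Selplg was at 5.50 and 5.41 and Csf1r at 4.35 and 4.27.

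Fcrls had the largest difference of the 8. It was at 2.35, 2.03 and 2.19 UMIs per 1000 in the Fos-positive cells of ENZ-NONE replicates 4, 5 and 6, against 2.60, 2.97 and 2.59 in the Fos-negative cells of the same libraries, and at 2.33 against 2.61 in DNC-NONE replicate 1. It was lower in the Fos-positive cells of all 4 libraries, by a log2 fold change of -0.26 ± 0.06 (SE; edgeR, adjusted p = 0.00677), which passed the p threshold but not the fold threshold. Over the alternatives the adjusted p ran from 0.000121 to 1.00. It was 1.00 by DESeq2, 0.792 on unthinned counts, 0.645 without ENZ-NONE replicate 5 and 0.289 without replicate 6, with log2 fold changes of -0.19 to -0.38 throughout. P2ry12, the purinergic receptor of microglial processes and not a member, was the other identity gene of this kind (-0.20 ± 0.05 SE, adjusted p = 0.00562). Tmem119 (-0.01 ± 0.05) and Cx3cr1 (0.02 ± 0.06) had 95% intervals of -0.11 to 0.10 and -0.10 to 0.14, and neither passed the test. Of the 12 other identity genes and the 10 tested genes around the members, 0 were called, while the 7 activation genes other than Fos, which defined the cells, were all called higher.

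Whether this Fos difference depended on the preparation cannot be tested with replicates, since outside ENZ-NONE only DNC-NONE replicate 1 had enough Fos-positive cells (48). The fit called 0.164% of genes and none of the members, but it holds no spread between DNC-NONE mice, so its values are descriptions. Sparc was at 1.67 UMIs per 1000 in the Fos-positive and 2.26 in the Fos-negative cells of DNC-NONE replicate 1, against 2.38 and 2.25, 2.07 and 2.36, and 2.19 and 2.42 in ENZ-NONE replicates 4, 5 and 6. Tmem119 was at 3.27 and 3.70 in DNC-NONE replicate 1, against 4.48 and 4.23, 4.38 and 4.26, and 3.53 and 3.72. The differences of these 2 genes between the preparations were the largest of the 8, 0.51 and 0.34 on the log2 scale, where the median over all genes was itself 0.20.

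In cells with more Fos UMIs the levels of some members were lower. These classes were set after the data were seen and carry no test. In the microglia-like cells of ENZ-NONE, the 8 genes together took 24.2 ± 0.4 UMIs per 1000 (SD, n = 3) in cells without Fos, 23.7 ± 0.4 in cells with 1 or 2 Fos UMIs, and 21.0 ± 1.9 in cells with 3 or more. The class with 3 or more held 76, 40 and 351 cells in replicates 4, 5 and 6 and was the lowest in all 3 libraries for the sum. Fcrls in that class was at 1.97, 1.40 and 2.11 UMIs per 1000, against 2.60, 2.97 and 2.59 without Fos. Selplg was at 5.11, 4.0 and 4.91, against 5.74, 5.52 and 5.65. Relative to cells without Fos, Fcrls was at 68.2% ± 18.5 and Selplg at 82.8% ± 8.9, whereas Tmem119 was at 95.2% ± 5.8 and Csf1r at 91.5% ± 1.4. The 25 myeloid activation genes of the study's list took 3.48% to 4.44% of the UMIs of these cells and 0.77% to 1.01% in cells without Fos. With those 25 genes left out of the total, Fcrls was at 70.4% ± 19.1, Selplg at 85.5% ± 9.1, Csf1r at 94.5% ± 1.0 and Tmem119 at 98.3% ± 5.7, the last below the cells without Fos in 1 of 3 libraries where it had been so in 3 of 3. Cx3cr1 (95.9% ± 17.3), Siglech (95.6% ± 24.3) and Olfml3 (90.1% ± 16.8) were below the cells without Fos in 2 of 3 libraries, and Sparc (89.6% ± 6.6) in 3 of 3 by this measure.

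**Figure D3:**
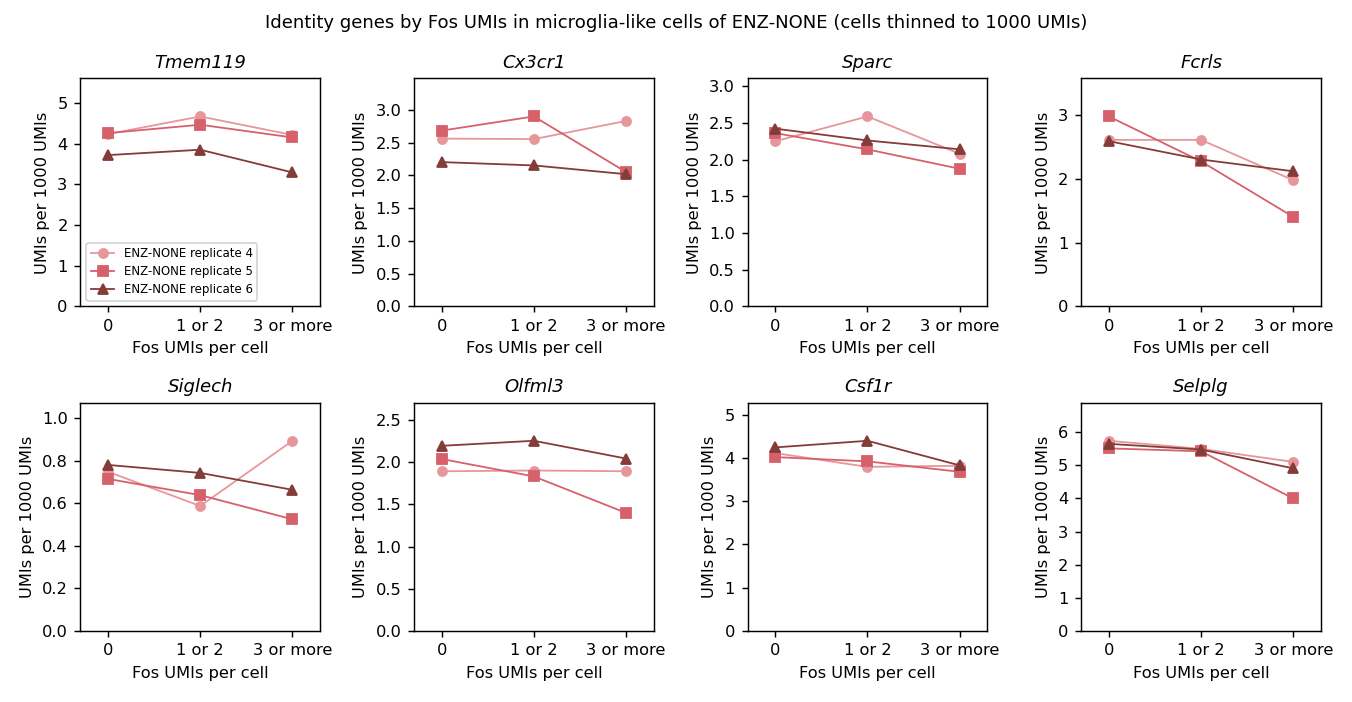
UMIs of each gene per 1000 UMIs in microglia-like cells of the 3 ENZ-NONE libraries, by the number of Fos UMIs in the cell (cells thinned to 1000 UMIs); each line joins the classes of 1 library. Fcrls, Selplg, Sparc and Tmem119 are lowest at 3 or more Fos UMIs in every library, and Tmem119 stays within 3.3 to 4.7.

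The 8 genes separated microglia-like cells from the other 2 classes in every library, but by very different factors. The classes were built without the 8 genes and with other markers, yet from the same cells, so these levels are a description with no test. For all 8 genes, the lowest microglia-like library lay above the highest border macrophage-like library and above the highest monocyte-like library, a count of 8 of 8 for each class, which was also found with a coarser clustering, with the members kept in the clustering, with a looser cell filter and after thinning. Among all 6244 genes with at least 500 UMIs, 5.67% lay above border macrophage-like cells in this way and 10.2% above monocyte-like cells. Border macrophages sit at the vessels, meninges and choroid plexus and share much of the macrophage program, and their cluster held 13 to 41 cells per library. Fcrls was at 1344 CPM over the class against 2613 in microglia-like cells, which is 51.4% of the microglial level and the largest share of the 8 when the libraries are pooled. Csf1r stood at 43.8% (1807 against 4123) and Cx3cr1 at 35.9% (871 against 2424). Olfml3 (18.9%), Siglech (16.1%), Tmem119 (14.6%), Selplg (13.6%) and Sparc (8.38%) formed a lower range. The shares differed with the dissociation method: Fcrls was at 61.1% and Csf1r at 47.9% in the Dounce libraries, and at 38.8% and 37.6% in the digested libraries. Fcrls was thus first in both pools, but its share was above that of Csf1r in 6 of 6 Dounce libraries and in only 2 of 6 digested libraries. Sparc was lowest in both, at 12.1% and 3.76%. Over the 12 libraries Fcrls ran from 530 to 1913 with a median of 1373, Tmem119 from 230 to 1048 with a median of 483, and Sparc from 0 to 666 with a median of 132. Thinned border macrophage-like cells carried a median of 5 UMIs of the 8 genes against 24 in microglia-like cells, and 17 of 303 reached the 5th percentile of microglia-like cells (14 UMIs). The 5 cells richest in a gene held 32.7% of the Sparc, 26.2% of the Siglech and 20.5% of the Tmem119 UMIs of the class, but 8.47% of the Fcrls and 7.17% of the Csf1r UMIs. The part of free RNA or of doublets with microglia in these levels was not tested.

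Monocytes circulate in the blood. In the monocyte-like cells, 3 to 33 per library, the 8 genes fell in 2 ranges. These cells were named from marker lists, and their origin was not tested. Csf1r (508 CPM, 12.3% of the microglial level), Selplg (613, 10.6%) and Cx3cr1 (254, 10.5%) are known to be expressed by blood monocytes. Siglech (4.96%), Olfml3 (4.34%), Fcrls (3.68%), Tmem119 (3.5%) and Sparc (3.24%) lay lower. The genes of the lower range rested on 9 to 32 UMIs each, of which 72.7% to 88.9% were in the 5 cells richest in that gene. Of the 415 member UMIs in the 123 cells, 159 were in 5 cells with 19 to 52 each, and no other cell had more than 7. All 8 genes had their highest monocyte-like value in ENZ-INHIB replicate 3, which held 4 of these cells, among them a Selplg level of 3309. Without that library the lower 5 genes were at 1.92% to 3.41% of the microglial level, while Csf1r was at 11.8%, Cx3cr1 at 10.0% and Selplg at 9.20%. In thinned cells, Csf1r had a UMI in 37.4% of monocyte-like cells (95% exact binomial interval 28.8% to 46.6%) and Selplg in 38.2% (29.6% to 47.4%), against 5.69% for Tmem119 (2.32% to 11.4%). The same holds for these counts as for the border macrophage-like levels: free RNA and doublets were not tested.

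**Figure D4:**
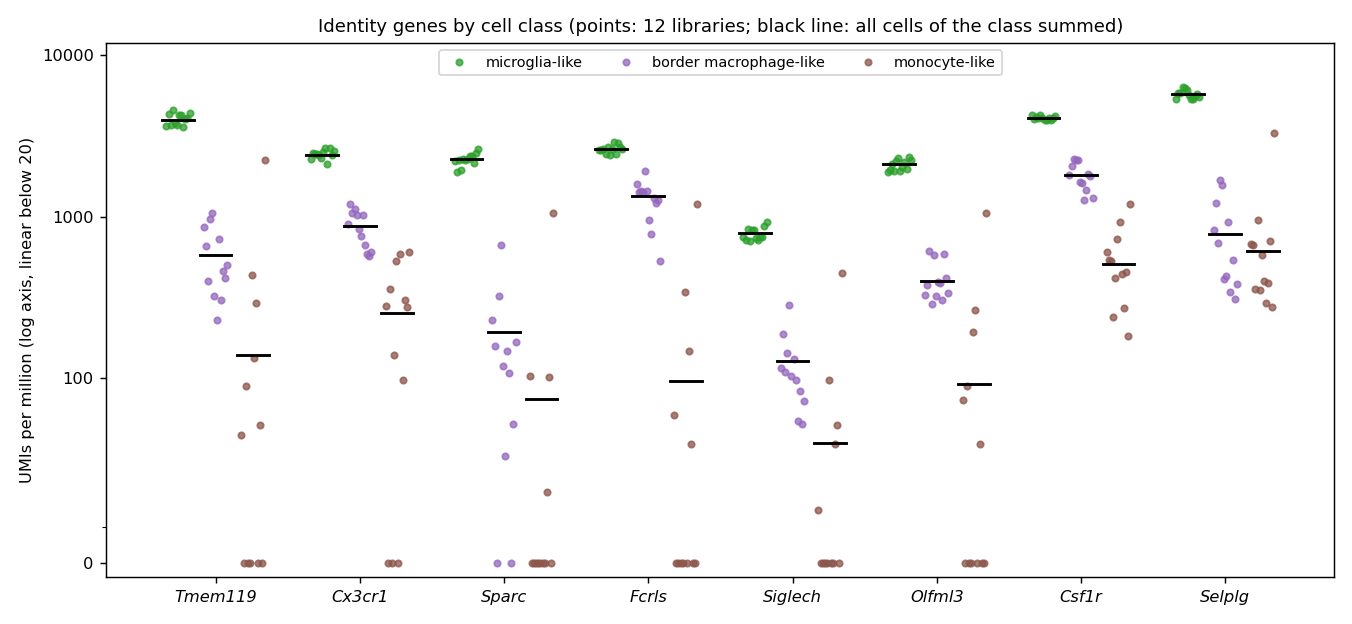
CPM of each gene in microglia-like, border macrophage-like and monocyte-like cells on a log axis that is linear below 20; points are the 12 libraries and black lines the class summed over all libraries. For every gene the microglia-like points lie above the other classes, and the border macrophage-like line, pooled over all libraries, is closest for Fcrls (1344 against 2613).

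The same measure places the members among the study's other identity genes. In border macrophage-like cells the complement genes C1qa, C1qb and C1qc kept 71.9% to 79.7% of their microglial level, above every member, whereas P2ry12 kept 8.95% and P2ry13 18.6%, within the range of the members. In monocyte-like cells the 12 other genes ran from 2.43% (Adgrg1) to 33.4% (Laptm5), and no member reached the level of Ly86 (27.3%) or Fcgr3 (27.7%). P2ry12, Trem2, Tgfbr1, P2ry13 and Adgrg1 served as markers to name the classes, so their place in this order is partly fixed.

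Among the microglia-like clusters, the cluster of 526 cells led by Spp1, Lpl and Cst7 had less of every member than the 4 large microglia-like clusters of the same library. These 3 genes are known from microglia that surround plaques or clear debris. The cluster held 27 to 98 cells in each of the 12 libraries, and all 8 genes were lower there in 12 of 12 libraries, as were 3.11% of all 6244 genes. Tmem119 was at 2049 ± 411 CPM (SD, n = 12) against 4141 ± 308 in the large clusters, 49.5% on average with a range of 38.1% to 69.1%. Selplg was at 2971 ± 396 against 5923 ± 340, 50.2% on average with a range of 38.2% to 59.4%, and the libraries of the 2 cell groups did not overlap for either gene. Siglech was at 59.9%, Cx3cr1 at 69.5%, Csf1r at 72.7%, Olfml3 at 73.4% and Fcrls at 73.9%, and Sparc differed least at 79.5%. In the interferon-responsive-like cluster of 370 cells, Fcrls stood out at 64.7% (1742 ± 421 against 2682 ± 144, lower in 12 of 12 libraries). Tmem119 was at 86.0%, also lower in 12 of 12, where 0.304% of all genes were. Values for the other 6 genes lay between 89.1% and 93.3%. Fcrls also had the lowest mean share of the 8 in the microglia-like cluster of 1232 cells led by Fos, 809 of them in ENZ-NONE replicate 6. There it was at 71.6% on average over 11 libraries of 7 to 809 cells, each counted equally, with a range of 43.9% to 100.1%. DNC-NONE replicate 2, with 3 cells, was left out. Siglech was at 79.1%, Selplg at 88.8%, and the other genes lay between 93.2% and 95.3%. Summed over the cells of all libraries, Fcrls was at 2272 CPM in this cluster, against 2388 to 2923 in the 4 large clusters. Siglech was at 674 against 794 to 834 and Tmem119 at 3450 against 3962 to 4581, so Fcrls did not stand apart by this measure. How many of all genes were lower in this cluster was not counted. The clusters were formed on other genes of the same cells, so these differences describe them and were not tested.

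**Figure D5:**
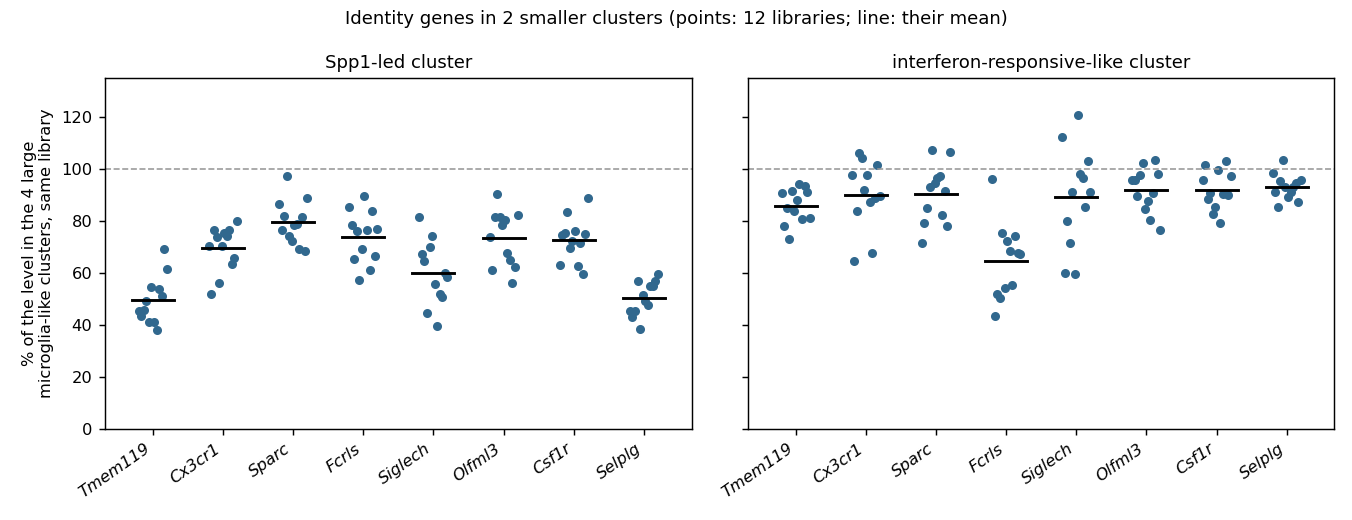
Level of each gene in the Spp1-led and in the interferon-responsive-like cluster as a percent of its level in the 4 large microglia-like clusters of the same library; points are 12 libraries, lines their mean, and the dashed line marks 100%. All points of the Spp1-led cluster lie below 100%, lowest for Tmem119 and Selplg, and Fcrls is the lowest gene of the interferon-responsive-like cluster.

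The genes whose pattern was most like that of the members included Mtdh, Trem2, Ctsd and Lpcat2. Likeness was the Pearson correlation with the mean centred log2 level of the 8 genes over 12 points (3 classes in 4 preparations), among 6133 genes. It was 0.996 for Mtdh, 0.995 for Trem2 and Ctsd, and 0.991 for Lpcat2. The points share libraries and the difference between classes dominates them. Trem2 served as a marker to name the classes, so its place here is partly fixed. Among the members, Cx3cr1 and Csf1r were each most like the other (r = 0.983), as were Tmem119 and Siglech (r = 0.980). Sparc was most like Selplg, at the lowest of these values (r = 0.926).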

How the data were processed

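Gene counts were made by the authors with bcl2fastq and Cell Ranger 3.0.0 on mm10/GRCm38 (10x 3′ v2 libraries), and the deposited matrices hold raw UMI counts per gene and cell barcode, not normalized. The members and gene lists were chosen with earlier results of these data known. A barcode was kept from 500 genes and 1000 UMIs upward if mitochondrial UMIs made up 10% or less, and 4 cells with 3 or more genes and 5 or more UMIs of a neural, vascular or red cell list were removed as doublets. That rule cannot find doublets of myeloid cells, so leaving out the 2% of cells highest by Scrublet (scanpy 1.11.5; 382 cells) was an alternative. Cells were clustered on 2000 variable genes without the members and without activation genes (Leiden, leidenalg 0.10.2, 30 components, 20 neighbours, resolution 1) and named from marker lists. A cluster took the name of the list whose detected genes averaged over 2 log2 units above the other cells, with at least 2 of them among its 10 leading genes. Clusters with no such list were microglia-like unless the microglia list was more than 1 log2 unit below the other cells. The monocyte-like cluster was led by neutrophil genes until 12 cells with 229 or more neutrophil UMIs (none of the other monocyte-like cells had more than 8) were set apart after the data were seen. Cells are not replicates: UMIs were summed per library (n = 3 per preparation) and tested over all genes with edgeR 4.0.16 (TMM, quasi-likelihood, Benjamini-Hochberg), DESeq2 1.42.0 being an alternative. For the Fos test, each cell was thinned to 1000 UMIs, and sums of Fos-positive and Fos-negative cells were compared with library as a block in libraries with at least 5 Fos-positive cells. The tests were also run on simulated data. Named genes were all 8 members, the fixed lists around them and the 5 most alike genes with at least 500 UMIs, of which some are not reported here. Intervals on shares cover counting error only. Totals of 1059783 to 3233159 UMIs per library left counts of 699 to 19058 UMIs per member and library. The p-values of the preparation tests rest on the spread between the libraries of separate mice. Those of the Fos test rest on how the difference within a library varied over the libraries that entered it. In both, the spread of each gene was drawn toward that of all genes. Replicate numbers are shared by the labels of 2 pairs of groups without a stated meaning.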

Additional observations from a re-analysis of the deposited data

How the results depend on the processing

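None of the 8 members was called in any comparison of preparations, in the digestion by inhibitor interaction or in the Fos test under any alternative except that, with no minimum fold, 1 member (Fcrls) was called in Fos-positive vs Fos-negative microglia. Of 1768 member log2 fold changes recomputed, 116 had the other sign, all of them uncalled, and 1 reached 0.58 (Sparc in the Fos interaction without the low-count filter). The counts over all genes moved more: without the low-count filter they were 206 (ENZ-NONE vs DNC-NONE, 61 in the report), 212 (vs DNC-INHIB, 79), 141 (vs ENZ-INHIB, 38), 86 (DNC-NONE vs DNC-INHIB, 0), 97 (ENZ-INHIB vs DNC-INHIB, 15), 213 (vs DNC-NONE, 10), 235 (digestion vs Dounce, 88), 130 (inhibitors, 22) and 72 (interaction, 17). For ENZ-INHIB vs DNC-INHIB, thinning gave 5, and the batch covariate and microglia-like cells alone 24 each. For ENZ-INHIB vs DNC-NONE, thinning gave 4, DESeq2 and every deposited barcode 19 each, and the looser cell filter 22. DNC-NONE vs DNC-INHIB had 2 with the batch covariate and 1 with microglia-like cells alone or DESeq2, and digestion vs Dounce 154 with no minimum fold. DESeq2 gave 21 for Fos (52) and 6 for its interaction (12), and leaving out ENZ-NONE replicate 6 gave 25 for Fos. Leaving out 1 library gave 0 to 63 for ENZ-INHIB vs DNC-NONE, 2 to 23 for ENZ-INHIB vs DNC-INHIB, 47 to 121 for digestion vs Dounce, 40 to 90 for ENZ-NONE vs DNC-NONE, 50 to 92 for ENZ-NONE vs DNC-INHIB, 0 to 2 for DNC-NONE vs DNC-INHIB, 7 to 19 for the interaction and 8 to 35 for inhibitors. Same-numbered libraries had correlations of -0.10 to 0.20 in their deviations from the group means, and differently numbered libraries -0.22 to 0.11. With 3 libraries per group these values cannot settle whether the replicate numbers pair the samples. With the number as a replicate block, ENZ-INHIB vs DNC-NONE called 89 genes (33 without it on the same 6 libraries, a setting chosen after seeing the data) and ENZ-NONE vs DNC-INHIB 104 (77), with 0 members in each. The cause of these shifts was not tested. None of 96 class levels moved by more than the spread over libraries. The Fos test without the ENZ-NONE libraries was not run, since 1 library remained, and the Fos interaction could not be fitted with at least 2 Fos UMIs or without DNC-NONE replicate 1. Depth limits the monocyte-like levels: where a library had no UMI of a gene, a count of 0 allowed 44.1 to 713 CPM.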

Other observations

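In border macrophage-like cells, members also varied with the dissociation method. Fcrls ran from 1432 to 1913 CPM in the 6 Dounce libraries (176 cells). In the 6 digested libraries (127 cells) it ran from 530 to 1313. These ranges did not overlap, and how many of all genes did the same was not counted. Selplg had medians of 1017 in Dounce and 407 in digested libraries, Tmem119 of 761 and 437, and Sparc of 194 and 79.9. The ranges of these genes overlapped. Cx3cr1 ran from 841 to 1196 and from 570 to 1024, and Csf1r from 1638 to 2288 and from 1267 to 1837. Siglech, on 49 and 16 UMIs, had medians of 129 and 77.9. Olfml3 was alike, with medians of 352 and 392. P2ry12, which marks microglia, moved with them, with a median of 992 in Dounce against 264 in digested libraries, and its part in the difference was not tested. Of 2 markers of the class itself, Pf4 had medians of 1464 and 1456, and Mrc1 of 907 and 631, with ranges of 573 to 1168 and 292 to 1044. These values were chosen after the data were seen, and no test was run.

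In a cluster of 63 cells led by Cd209a, which was left unnamed, Selplg was at 851 CPM, 14.7% of its microglial level, while the other 7 members were between 2.54% and 8.72%.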
